A study of Rattus norvegicus with 9 samples.

Results

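Respiratory complexes II to V are the enzymes that carry electrons from succinate and ubiquinol to oxygen in the inner mitochondrial membrane and use the resulting proton gradient to make ATP. Their nuclear-encoded subunits were followed in RNA-seq of the rat left ventricle. Members were chosen by gene symbol alone: Sdha, Sdhb, Sdhc, Sdhd, Cyc1, Cycs, and all symbols that begin with Uqcr, with Atp5, or with Cox and a digit from 4 to 8. The rule matched 49 of 22608 gene names, and the 46 with a mean of at least 1 CPM (counts scaled to a common library total) over the 9 libraries were kept. They comprise 4 subunits of complex II, 9 of complex III, cytochrome c itself (Cycs), 13 of complex IV, 15 of complex V, and 4 genes (Atp5s, Atp5sl, Cox7a2l and Cox7a2l2) that share the names without being listed as subunits. Of the 3 names left out, Cox6b2 averaged 0.237 CPM, and Cox7b2 and Cox8c were listed at 0. Cox4i2, at a mean of 9.45 CPM, was the lowest member kept. Subunits encoded by mitochondrial DNA were not analysed here. Cox6b1, whose symbol fits the rule, was not among the 49 gene names matched.

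Complex II (succinate dehydrogenase) also belongs to the citrate cycle and passes electrons to ubiquinone. Complex III hands them to cytochrome c, complex IV (cytochrome c oxidase) passes them to oxygen, and complex V (ATP synthase) lets protons flow back through a membrane rotor that drives ATP synthesis in a catalytic head. The heart depends on this chain for nearly all of its ATP, and several complex IV subunits have a separate heart and skeletal muscle isoform.

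The libraries came from Sprague-Dawley rats, with an age given as 8 weeks plus 28 days, in 3 groups of 3 libraries. Rats received saline, angiotensin II (Ang II, a pressor hormone used in animals to provoke remodelling of the heart), or Ang II together with sodium butyrate (NaBu, a short-chain fatty acid salt that inhibits histone deacetylases). No dose is given, and no group received NaBu without Ang II. The labels do not say that each library is a different animal. The tests therefore set group differences against the spread between libraries, part of which may be technical. Each group was deposited as a separate table, so a difference between groups and a difference in the making of the tables cannot be told apart.

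Totals ran from 29284780 to 49865446 estimated counts a library. The 8 ventricular markers (Myh6, Tnnt2 and others) were detected and summed to between 46300 and 76600 CPM in saline, 62300 and 63700 in Ang II, and 67000 and 74900 in NaBu libraries. Saline replicate 2 stood apart: its 7 atrial markers summed to 5930 CPM against 53.9 to 303 in the other 8 libraries, and its ventricular sum was the lowest of all. Calls and counts of members against saline are given with and without it.

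The members had no common direction with Ang II and stood higher in the libraries with NaBu. They took 1.83%, 1.35% and 1.73% of all estimated counts in saline replicates 1, 2 and 3. Their share was 1.55%, 1.90% and 1.85% in the Ang II libraries and 1.94%, 2.08% and 2.24% in NaBu replicates 2, 4 and 6. The 3 NaBu libraries therefore held the highest shares, without overlap with either group. Outside ribosomal RNA the shares were 2.17%, 1.51% and 2.13% in saline, 1.75%, 2.09% and 2.11% in Ang II and 2.15%, 2.31% and 2.43% in NaBu libraries, so that saline replicate 1 exceeded the lowest NaBu library. The mitochondrial ribosomal RNA mt-Rnr2 went the other way, from 9.72% to 15.67% of counts in saline and 8.07% to 11.84% in Ang II to 6.46% to 7.56% in NaBu libraries, and its part in the members' shares was not tested.

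Within the saline and Ang II groups the members moved together, and less so within the NaBu group. With each member centred on its mean log2 level over the 9 libraries, the median over the 46 was 0.06, -0.61 and 0.13 in saline, -0.32, -0.01 and 0.04 in Ang II, and 0.12, 0.19 and 0.33 in NaBu libraries. Saline replicate 2 was the lowest of its group for all 46 members and the lowest of all 9 libraries for 41. Ang II replicate 1 was the lowest of its group for 42 members, and the lowest of all 9 for the other 5. NaBu replicate 6 was the highest of all 9 for 29 members. Within the NaBu group the lowest library was replicate 2 for 26 members, replicate 4 for 18 and replicate 6 for 2. The median coefficient of variation was 26.9% among saline, 13.5% among Ang II and 9.87% among NaBu libraries. The members' widest spreads were those of Sdhc (73.1% in NaBu) and Atp5i (57.7% in saline), and the narrowest was that of Uqcrb (1.26% in NaBu).

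**Figure D1:**
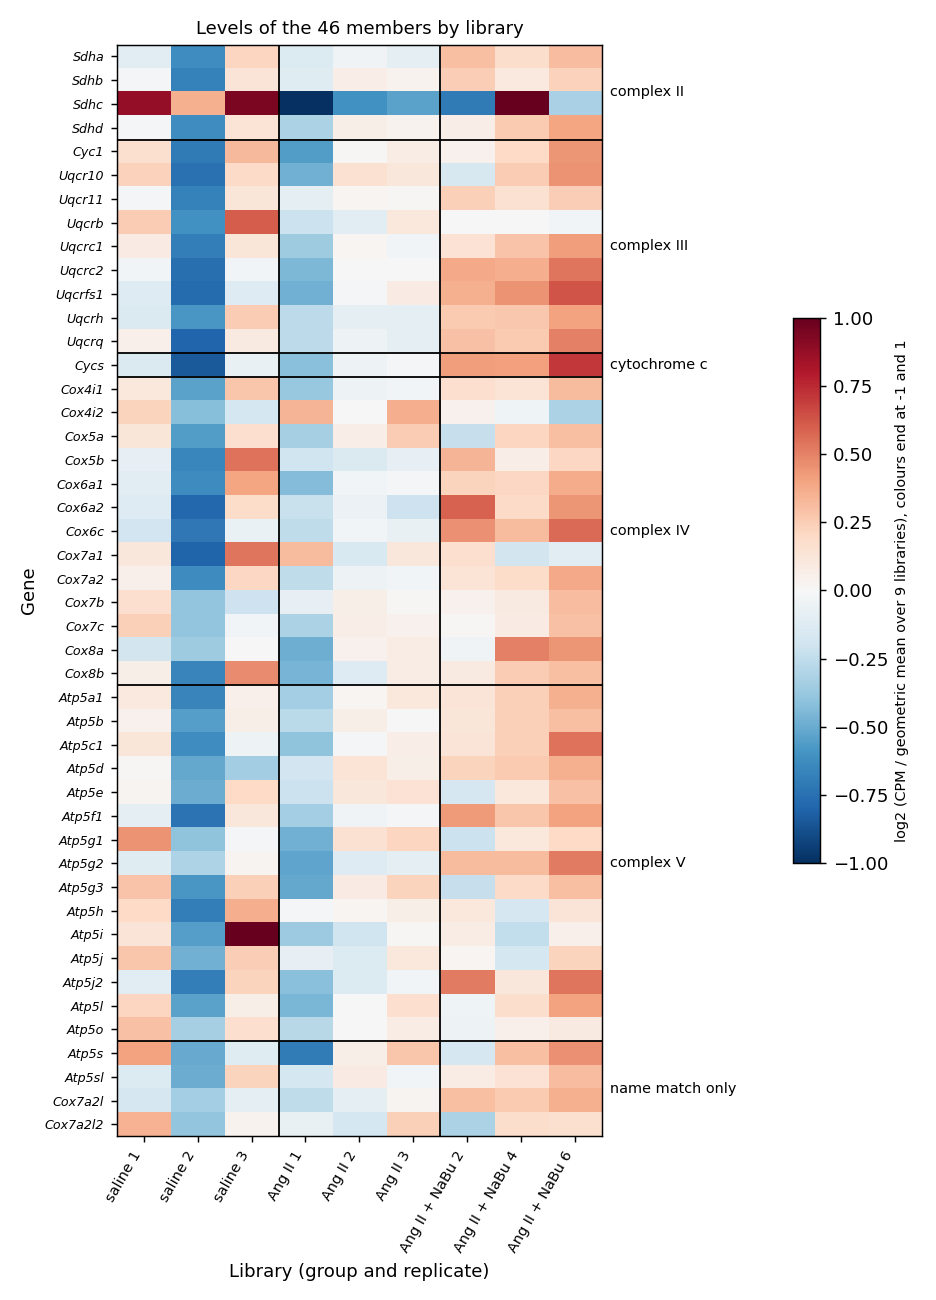
Log2 level of each of the 46 members in each of the 9 libraries, centred on the member's mean over the libraries and ordered by complex. The column of saline replicate 2 is low for nearly all members, with a median of -0.61, and the 3 NaBu columns are mostly above 0. Colours end at -1 and 1, and Sdhc lies below 0 in the 3 Ang II columns and in NaBu replicates 2 and 6.

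Adding NaBu to Ang II was examined by setting the NaBu libraries against the Ang II libraries. Of the 46 members 44 had a higher mean with NaBu and 2 a lower one (Cox4i2 and Cox7a1). The median difference was 0.31 on the log2 scale, a fold of 1.24, beside -0.02 over all 15467 genes tested. Cytochrome c stood highest among the complexes at 0.67, followed by complex III at a median of 0.40, complex IV at 0.35, complex II at 0.33 and complex V at 0.26. The 3 NaBu libraries were all above the 3 Ang II libraries for 25 members and all below for none, where 18.1% of all genes tested were above and 17.5% below without overlap. By complex these were 3 of 4 members in II, 6 of 9 in III, cytochrome c, 7 of 13 in IV, 7 of 15 in V and 1 of the 4 name matches.

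None of the 46 passed the test at an adjusted p of 0.05 (edgeR quasi-likelihood test, adjusted by Benjamini-Hochberg over all genes), where 0.647% of all genes rose and 0.957% fell. The smallest adjusted p among them was 0.0537 for Atp5g2, and 13 were higher at an unadjusted p under 0.05, beside 11.3% of all genes. DESeq2 called 8 members higher, beside 5.64% of all genes. Leaving out saline replicate 2, which belongs to neither group but shares in the estimate of the spread, gave 12 calls, all higher, beside 6.16% of all genes. A fit of only the 2 groups compared gave 13, beside 7.12% of all genes, and leaving out saline replicate 3 gave 1, Atp5g2, beside 1.71%. Under scaling by total counts alone the split became 36 higher and 10 lower, with a median of 0.20 for the members and -0.13 for all genes. Without Ang II replicate 1 the median was 0.20, with 38 higher and 8 lower.

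Markers of cell types were read in the same comparison. The ventricular list was higher with NaBu for 7 of its 8 genes, with a median log2 difference of 0.22. The 4 endothelial markers were all lower, from 925 to 1080 CPM summed in Ang II to 746 to 896 in NaBu libraries. The 5 erythroid markers were all lower, from 2360 to 4180 to between 2100 and 2680, so their sums overlapped. Of the 7 fibroblast markers 5 were higher (median 0.16), and of the 7 atrial markers 6 were (0.86). Of the 4 macrophage markers 2 were higher and 2 lower. None of these markers passed the test or was at 0 in all libraries. Their part in the members' difference was not tested, and fewer cells of a type and less RNA per cell cannot be told apart in these bulk samples.

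**Figure D2:**
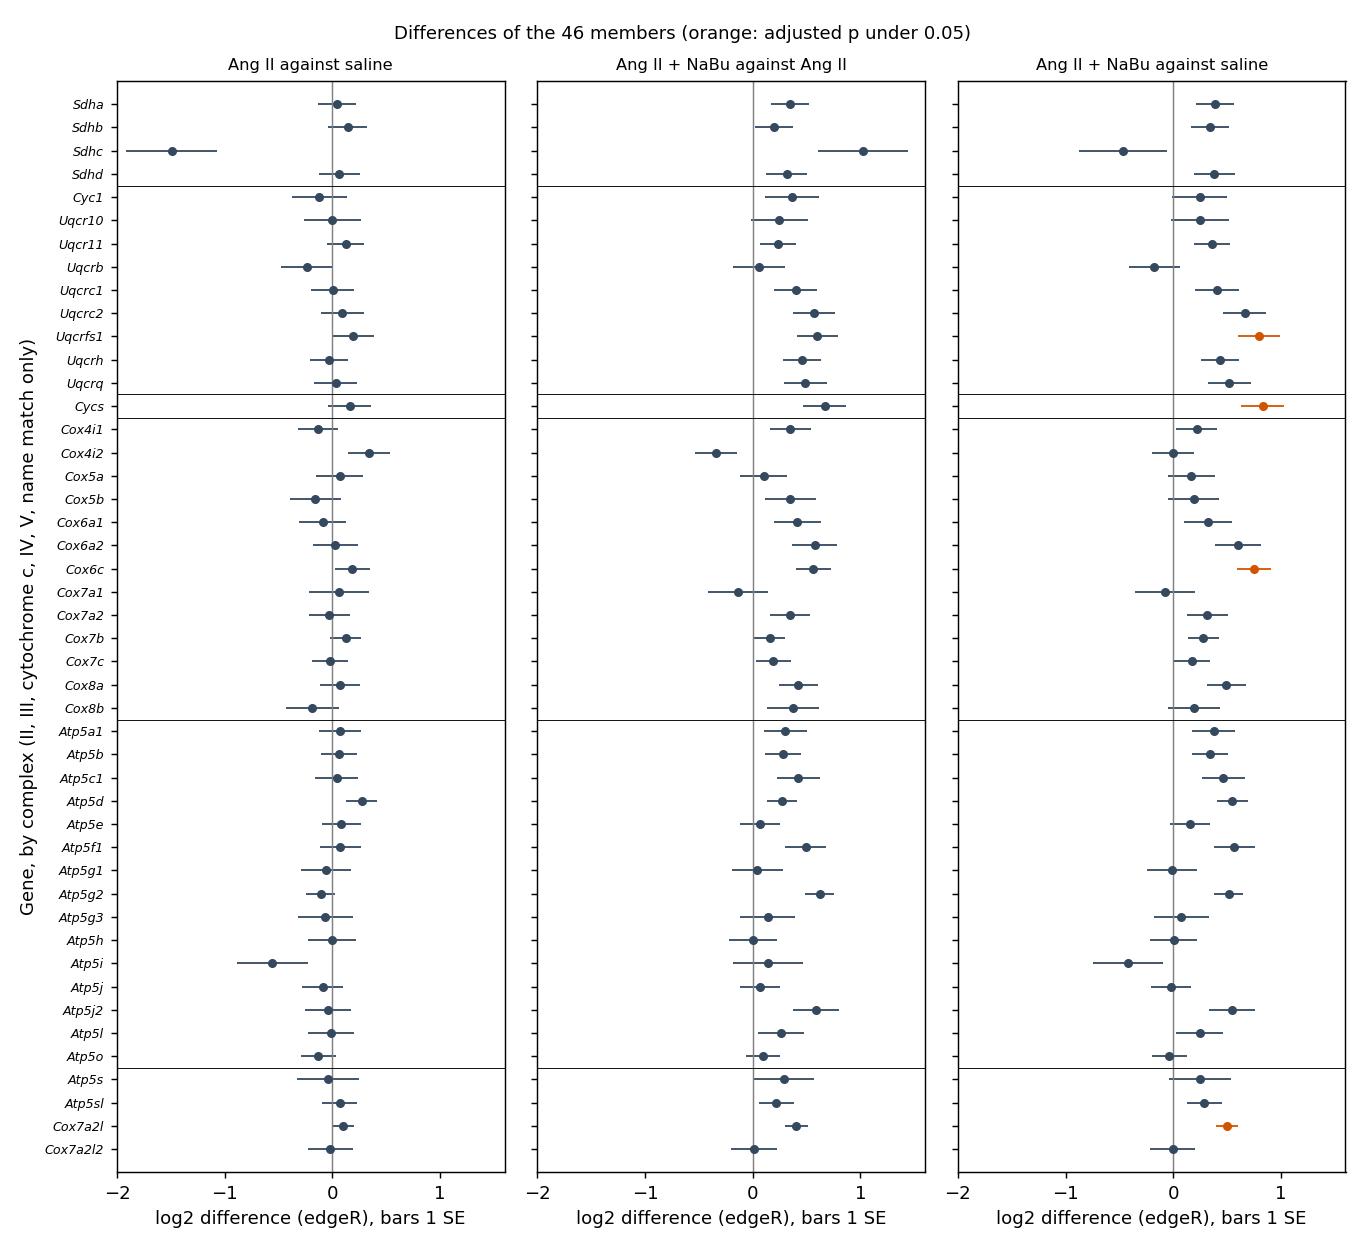
Log2 difference of each member with its standard error, for Ang II against saline, NaBu against Ang II and NaBu against saline, by complex, with the 4 members that passed the test in orange. In the panel of NaBu against Ang II 44 of 46 points lie above 0, and in that of Ang II against saline 25 do, with Sdhc lowest at -1.49.

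The NaBu libraries were also set against saline, which asks how far the members with both agents stood from their levels in rats given saline. Here 4 members rose and none fell: Cycs, Uqcrfs1, Cox6c and Cox7a2l, that is 4 of 46 beside 3.01% of all genes tested that rose and 2.05% that fell. They encode the electron carrier cytochrome c, the Rieske iron-sulphur subunit of complex III, a small membrane subunit of complex IV, and a factor that joins complexes III and IV into supercomplexes. Means were higher for 38 members and lower for 8, with a median of 0.30 (1.23-fold) beside -0.05 for all genes. The groups did not overlap for 16 members, all higher, where 14.5% of all genes were higher and 14.1% lower without overlap. At an unadjusted p under 0.05 there were 15 higher members, beside 12.4% of all genes. In the same comparison 6 of the 8 ventricular markers were higher, with a median of 0.21, and the 7 fibroblast markers were all lower, with a median of -0.36 and none called. The fibroblast sums were 2600, 4450 and 3680 CPM in saline replicates 1, 2 and 3. In NaBu libraries these sums ran from 2580 to 3230, so the groups overlapped. The 7 atrial markers were all lower, with a median of -5.89, but saline replicate 2 held most of their level. They summed to 147, 5930 and 303 CPM in saline replicates 1, 2 and 3 and to 97.9 to 195 in NaBu libraries. Only Bmp10 was called (edgeR, adjusted p = 0.0376), at 0.42, 646 and 22.2 CPM in saline and at most 0.419 in NaBu libraries. The 4 endothelial markers were all lower, with a median of -0.14. Of the 5 erythroid markers 3 were higher and 2 lower (median 0.19). Of the 4 macrophage markers 1 was higher and 3 lower (-0.29). The part of these lists in the members' difference was not tested.

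Cycs stood at 468, 289 and 491 CPM in the saline libraries, 387, 499.6 and 510.1 in the Ang II libraries and 692, 688 and 842 in the NaBu libraries. Its 3 NaBu values lay above all other 6, and it rose 1.78-fold over saline, a log2 difference of 0.83 (SE 0.198, adjusted p = 0.0424). Against Ang II its difference was 0.67 (SE 0.198, adjusted p = 0.0962), which did not pass the test. Cytochrome c is known also for its release from mitochondria in apoptosis.

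Uqcrfs1, whose iron-sulphur cluster takes electrons from ubiquinol, had 380.4, 244 and 380.1 CPM in saline, 299, 411 and 439.9 in Ang II and 533, 567 and 643 in NaBu libraries. All NaBu values were again above the other 6. It rose 1.74-fold over saline, by 0.80 (SE 0.194, adjusted p = 0.0459) on the log2 scale, and differed from Ang II by 0.60 (SE 0.194, adjusted p = 0.115).

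Cox6c was at 352, 245 and 384 CPM in saline, 339, 396.5 and 382.5 in Ang II and 552, 501 and 598 in NaBu libraries, again with no overlap between NaBu and either group. The log2 difference from saline was 0.75 (SE 0.161, adjusted p = 0.0338), a 1.68-fold rise, and that from Ang II was 0.56 (SE 0.16, adjusted p = 0.0895).

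Cox7a2l showed the smallest rise and the smallest spread of the 4. Its levels were 94, 83.5 and 98.8 CPM in saline, 88.5, 99.3 and 108 in Ang II and 130.2, 126 and 135 in NaBu libraries, so the NaBu libraries stood above both groups. It rose 1.42-fold over saline, with a log2 difference of 0.50 (SE 0.104, adjusted p = 0.0306), and differed from Ang II by 0.41 (SE 0.103, adjusted p = 0.0741).

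These 4 calls depended on single libraries. Without saline replicate 2, in which all 4 had their lowest saline level, only Cox6c and Cycs were called, beside 1.86% of all genes, and the median difference of the 46 was 0.13, with 31 higher and 15 lower. NaBu then lay above saline without overlap for 16 members and below for 5, beside 19.2% and 19.1% of all genes. Without saline replicate 1 only Atp5d was called, beside 1.47% of all genes that rose, and without saline replicate 3 there were 9 calls, beside 4.86%. Without Ang II replicate 1 the Cycs call was lost and Atp5g2 was called, beside 2.79% of all genes. No member was called without Ang II replicate 2 or 3, where 0.874% and 0.909% of all genes rose, or without NaBu replicate 2, 4 or 6, where 0.0317%, 0.432% and 0.019% did. No member was called when only the 2 groups were fitted, where 0.0331% of all genes rose. DESeq2 called 11 members, all higher, beside 8.02% of all genes.

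**Figure D3:**
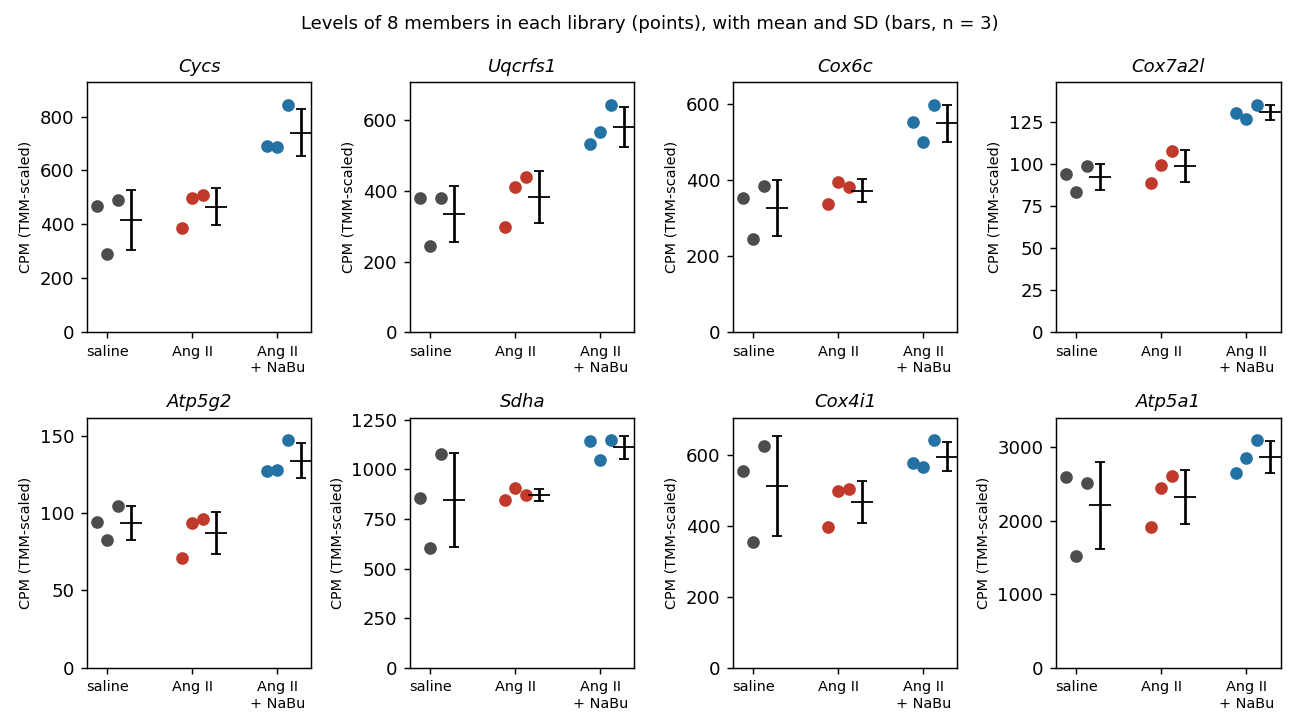
Level in CPM of Cycs, Uqcrfs1, Cox6c, Cox7a2l, Atp5g2, Sdha, Cox4i1 and Atp5a1, with points for libraries and, beside them, the group mean with its SD (n = 3). In all 8 panels the 3 NaBu points lie above the 3 Ang II points, while in Sdha and Cox4i1 saline replicate 3 reaches into the NaBu range.

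The promoters of a few members are shown because nuclear subunits are known to share regulators such as NRF1, the ERR and ETS families and YY1. They are the RefSeq sequences of build GRCr8, 300 bases from 250 before to 50 after the gene start, written 5′ to 3′ on the gene's strand. Capitals mark exact matches, on either strand, to the NRF1 core GCGCATG, the ERR core AAGGTCA, the ETS core CCGGAAG, the YY1 core AAGATGG or the CCAAT box. The set holds 3 of the 4 genes that rose over saline (Cox6c is named without one), Atp5g2 as the member with the smallest adjusted p against Ang II, and Sdhc as the member whose difference was widest.
Cycs: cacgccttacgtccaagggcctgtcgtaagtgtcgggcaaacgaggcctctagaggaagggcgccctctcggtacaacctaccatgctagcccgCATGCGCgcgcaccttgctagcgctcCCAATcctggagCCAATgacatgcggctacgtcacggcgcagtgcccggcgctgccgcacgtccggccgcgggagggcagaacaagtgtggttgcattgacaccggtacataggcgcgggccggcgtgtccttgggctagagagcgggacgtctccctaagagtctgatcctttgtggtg
Uqcrfs1: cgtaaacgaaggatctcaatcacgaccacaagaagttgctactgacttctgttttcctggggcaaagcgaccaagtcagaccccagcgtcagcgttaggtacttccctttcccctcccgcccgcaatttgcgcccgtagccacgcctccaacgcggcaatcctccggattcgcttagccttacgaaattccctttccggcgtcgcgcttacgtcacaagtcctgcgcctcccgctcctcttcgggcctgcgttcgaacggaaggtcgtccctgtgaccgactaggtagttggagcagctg
Cox7a2l: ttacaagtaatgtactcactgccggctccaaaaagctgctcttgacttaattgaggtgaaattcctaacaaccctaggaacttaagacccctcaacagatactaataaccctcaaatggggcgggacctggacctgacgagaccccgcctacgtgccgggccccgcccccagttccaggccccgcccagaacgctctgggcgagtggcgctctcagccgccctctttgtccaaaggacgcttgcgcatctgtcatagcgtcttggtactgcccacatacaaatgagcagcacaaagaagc
Atp5g2: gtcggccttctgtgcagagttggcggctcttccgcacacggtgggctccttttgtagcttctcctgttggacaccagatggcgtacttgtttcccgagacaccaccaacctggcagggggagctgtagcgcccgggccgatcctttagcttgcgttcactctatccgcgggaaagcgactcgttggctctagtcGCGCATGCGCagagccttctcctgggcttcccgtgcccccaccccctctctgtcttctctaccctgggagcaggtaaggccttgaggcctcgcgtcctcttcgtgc
Sdhc: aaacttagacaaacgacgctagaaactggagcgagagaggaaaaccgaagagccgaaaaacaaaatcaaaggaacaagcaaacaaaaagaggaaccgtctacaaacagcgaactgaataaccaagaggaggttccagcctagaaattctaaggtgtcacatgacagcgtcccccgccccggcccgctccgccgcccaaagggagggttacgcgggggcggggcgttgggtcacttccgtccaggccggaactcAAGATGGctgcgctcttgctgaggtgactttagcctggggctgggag
They lie at chr4:80984718-80985017 on the minus strand for Cycs, chr17:34186352-34186651 on the plus strand for Uqcrfs1, chr6:16936324-16936623 on the plus strand for Cox7a2l, chr7:135678169-135678468 on the minus strand for Atp5g2 and chr13:86097976-86098275 on the minus strand for Sdhc. The Cycs promoter holds an NRF1 core on the other strand and 2 CCAAT boxes. That of Atp5g2 holds 2 NRF1 cores on opposite strands that overlap within 1 run of capitals, and that of Sdhc holds a YY1 core. The windows of Uqcrfs1 and Cox7a2l hold none of these exact letters.

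A promoter could be matched for 38 of the 46 members, 23 by symbol, 14 by transcript and 1 by synonym. The NRF1 core was in 8 of the 38 (21.1%) beside 3.77% of all 33469 promoters in the table, and the ERR core in 7 (18.4%) beside 4.61%. The ETS core was in 13 (34.2%) beside 8.75%, the YY1 core in 9 (23.7%) beside 7.01%, and the CCAAT box in 12 (31.6%) beside 37.5%. These counts describe letters in a window, not binding.

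The comparison of Ang II with saline, which asks what Ang II alone did, showed no change that passed the test in any member, and 0% of all genes were called in either direction. Means were higher for 25 members and lower for 21, with a median of 0.02 (1.01-fold) beside -0.0045 for all genes. Sdhc stood out, at a fold of 0.356. It was the only member whose groups did not overlap, being lower in Ang II, where 4.97% of all genes were lower and 4.94% higher without overlap. It was also the only member at an unadjusted p under 0.05, which 3.49% of all genes reached in the lower and 2.44% in the higher direction. DESeq2 called no member, and 0.149% of all genes higher and 0.22% lower. Without saline replicate 2 the median was -0.20, with 6 higher and 40 lower, and 13 were below saline without overlap and none above, beside 11.9% and 12.1% of all genes. Without saline replicate 3 it was 0.17, with 39 higher and 7 lower. Scaling by total counts gave 36 higher and 10 lower, so no direction is read for the set. The 7 fibroblast (median -0.45), 4 macrophage (-0.33) and 7 atrial markers (-8.20) were all lower, and saline replicate 2 had the highest sum of each of these lists. The 5 erythroid (0.67) and 4 endothelial markers (0.11) were all higher. Of the 8 ventricular markers 4 were higher and 4 lower. None of these markers was called, and their part in the members' levels was not tested.

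In complex II, 3 subunits were ordered alike over the groups, with NaBu above Ang II, and the membrane anchor Sdhc had a different order. Sdha, the flavoprotein that oxidises succinate, was at 857, 604 and 1079 CPM in saline, 845, 905 and 869 in Ang II and 1142, 1045 and 1146 in NaBu libraries. Sdhb, the iron-sulphur subunit, was at 399, 252 and 440.4 in saline, 371, 422 and 413 in Ang II and 477, 432 and 473 in NaBu libraries. Both stood above Ang II in the NaBu group without overlap, and both overlapped with saline. The differences from Ang II were 0.35 (SE 0.176, adjusted p = 0.275) for Sdha and 0.20 (SE 0.178, adjusted p = 0.557) for Sdhb on the log2 scale. Sdhd, which anchors the enzyme in the membrane together with Sdhc, likewise stood higher with NaBu without overlap, by 0.31 (SE 0.189, adjusted p = 0.359).

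Sdhc itself was at 197, 137 and 206 CPM in saline, 47.8, 70.35 and 73.9 in Ang II and 65.7, 239 and 85.4 in NaBu libraries. All Ang II values lay below all saline values, while in the NaBu group replicate 4 lay above the saline values and replicates 2 and 6 were near the Ang II level. The log2 difference of Ang II from saline was -1.49 (SE 0.421, adjusted p = 0.719), and those of NaBu were 1.02 (SE 0.416, adjusted p = 0.187) from Ang II and -0.47 (SE 0.412, adjusted p = 0.526) from saline. In no alternative of any comparison was Sdhc called, with adjusted p from 0.338 to 1 for Ang II against saline.

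The deposited tables hold 2 Sdhc transcripts, of which the leading one held most of the counts. Not scaled for depth, it had 6527, 4982 and 5138 estimated counts in saline, 1332, 2155 and 2981 in Ang II and 2079, 8756 and 3535 in NaBu libraries. The other had 49, 164 and 201 in saline, 255, 268 and 216 in Ang II and 323, 383 and 569 in NaBu libraries. The leading share was 99.3%, 96.8% and 96.2% in saline against 83.9%, 88.9% and 93.2% in Ang II, without overlap (exact permutation test, two-sided, p = 0.1, the smallest that 3 against 3 libraries allow). Reads shared with a near-identical copy elsewhere could not be traced.

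**Figure D4:**
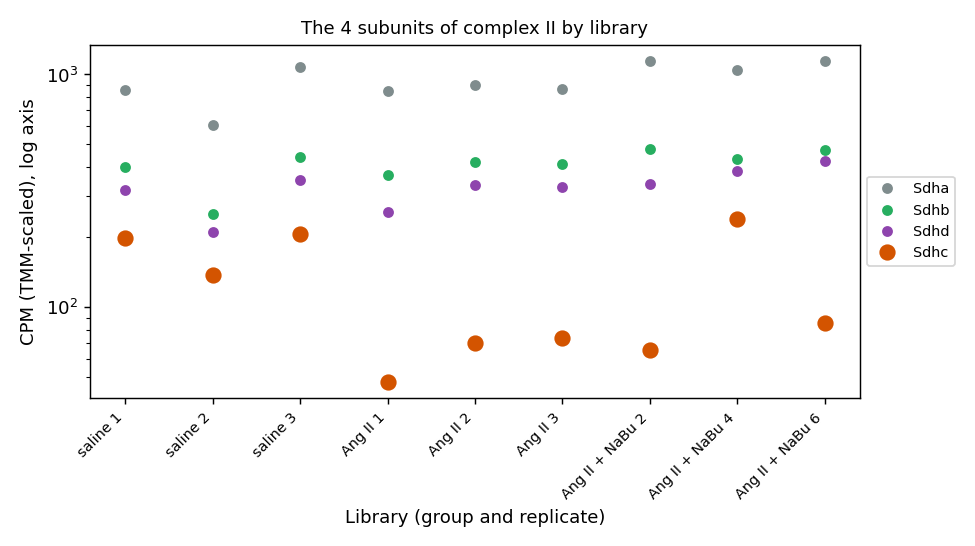
Level in CPM, on a log axis, of the 4 complex II subunits in each library. Sdha, Sdhb and Sdhd keep nearly parallel courses, while Sdhc lies at 47.8 to 73.9 CPM in the Ang II libraries and at 239 in NaBu replicate 4.

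In complex III all 9 subunits had a higher mean with NaBu than with Ang II, and 1 of them, Uqcrfs1, rose over saline. The core subunit Uqcrc1 was at 405, 237 and 417 CPM in saline, 299.9, 388 and 375 in Ang II and 423, 468 and 513 in NaBu libraries, higher with NaBu than in both other groups without overlap. Its log2 difference was 0.40 (SE 0.2, adjusted p = 0.269) from Ang II and 0.41 (SE 0.2, adjusted p = 0.243) from saline. Its partner Uqcrc2 behaved likewise at a larger difference, 0.57 (SE 0.197, adjusted p = 0.135) from Ang II and 0.66 (SE 0.197, adjusted p = 0.0755) from saline.

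Cyc1, the haem protein that reduces cytochrome c, was at 230.2, 126 and 257.5 CPM in saline, 139.9, 208 and 217 in Ang II and 212, 235.5 and 279.7 in NaBu libraries. Its groups overlapped in every comparison, and its difference from Ang II was 0.37 (SE 0.253, adjusted p = 0.427). Uqcrb, a small subunit at the ubiquinone site, had the smallest difference of the complex. It was at 117, 64.4 and 149 CPM in saline, 84.6, 90.6 and 106 in Ang II and 98.5, 98.2 and 96.2 in NaBu libraries, with a difference of 0.06 (SE 0.239, adjusted p = 0.915) from Ang II and -0.17 (SE 0.239, adjusted p = 0.7) from saline. The other 4 small subunits lay between 0.23 (Uqcr11) and 0.49 (Uqcrq) above Ang II, with Uqcr10 at 0.25 and the hinge protein Uqcrh at 0.46. All of them but Uqcr10 were free of overlap with both other groups.

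In complex IV 11 of 13 subunits had a higher mean with NaBu than with Ang II, and 1, Cox6c, rose over saline. Cox4i1, its largest nuclear-encoded subunit, was at 556, 356 and 627 CPM in saline, 398.5, 499 and 506 in Ang II and 579.5, 568 and 642 in NaBu libraries. It was higher with NaBu than with Ang II without overlap, by 0.35 (SE 0.19, adjusted p = 0.309), and overlapped with saline. Cox5a was at 223, 138.5 and 229 in saline, 162, 214 and 243 in Ang II and 174, 237 and 252 in NaBu libraries, and overlapped throughout, with a difference of 0.10 (SE 0.22, adjusted p = 0.833) from Ang II. Its partner Cox5b stood 0.35 above Ang II without overlap. Cox7b and Cox7c lay 0.16 and 0.19 above Ang II and overlapped in all 3 comparisons.

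The remaining complex IV members form isoform pairs, in which 1 gene is the heart and muscle form or a form linked to low oxygen. Cox4i2, the alternative to Cox4i1 that is best known from lung, was at 10.9, 6.89 and 8.21 CPM in saline, 11.7, 9.26 and 11.9 in Ang II and 9.575, 8.98 and 7.45 in NaBu libraries. Its difference of -0.34 (SE 0.194, adjusted p = 0.333) between NaBu and Ang II was the lowest of all 46, and the groups overlapped. This level sums 5 transcripts, of which the leading one held 97.5%, 100% and 95.8% in saline, 0%, 47.3% and 86.7% in Ang II and 43.1%, 0% and 33.5% in NaBu libraries. With that transcript alone, Cox4i2 in Ang II libraries differed from saline by -0.77, and NaBu libraries differed from Ang II by -1.18 and from saline by -1.94, none called, so its levels and the ratio that follows depend on how transcripts are counted. The log2 ratio of Cox4i1 to Cox4i2 within a library, which does not depend on scaling, was 5.09, 5.75 and 5.41 in Ang II libraries and 5.92, 5.98 and 6.43 in NaBu libraries. The NaBu ratios lay above the Ang II ratios, while the saline ratios of 5.68, 5.69 and 6.25 overlapped with both.

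Cox6a2, the heart form, was at 739, 468 and 915 CPM in saline, 691, 773 and 699 in Ang II and 1211, 918 and 1095 in NaBu libraries. Its NaBu values lay above all others, with the largest difference of complex IV from Ang II, 0.58 (SE 0.21, adjusted p = 0.15). Cox6a1, the form of other tissues, was at 67.2, 46.8 and 95.2 in saline, 53.6, 70.9 and 71.7 in Ang II and 84.45, 83.5 and 93.4 in NaBu libraries, higher with NaBu than with Ang II without overlap, by 0.41 (SE 0.219, adjusted p = 0.297). The log2 ratio of Cox6a2 to Cox6a1 averaged 3.35 ± 0.100 in saline, 3.47 ± 0.203 in Ang II and 3.62 ± 0.200 in NaBu libraries (SD, n = 3) and overlapped between all groups.

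Cox7a1, another heart form, was at 15.7, 8.325 and 21 CPM in saline, 18.1, 13.1 and 15.7 in Ang II and 16.4, 12.8 and 13.55 in NaBu libraries. Cox7a2 was at 210.4, 131 and 234 in saline, 170, 196 and 199 in Ang II and 223, 230 and 264 in NaBu libraries. The differences of NaBu from Ang II were -0.14 (SE 0.278, adjusted p = 0.824) for Cox7a1, with overlap, and 0.34 (SE 0.187, adjusted p = 0.311) for Cox7a2, without. The log2 ratio of Cox7a1 to Cox7a2 averaged -3.73 ± 0.252 in saline, -3.60 ± 0.340 in Ang II and -4.07 ± 0.272 in NaBu libraries (SD, n = 3), with overlap. The Cox7a1 level sums 4 transcripts, of which the leading one held 45% of the counts on average. Its difference of NaBu from Ang II ran from -0.25 to 0.12 over the alternatives, none called.

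Cox8b, the heart form in rodents, was at 237, 143.5 and 315 CPM in saline, 165, 208.5 and 239 in Ang II and 242, 271 and 280.4 in NaBu libraries. Cox8a was at 47.1, 41.9 and 53.4 in saline, 38.1, 55 and 56.4 in Ang II and 52.2, 75.6 and 72.55 in NaBu libraries. Against Ang II the differences were 0.37 (SE 0.243, adjusted p = 0.395) for Cox8b, without overlap, and 0.42 (SE 0.182, adjusted p = 0.208) for Cox8a, with overlap. The log2 ratio of Cox8b to Cox8a averaged 2.22 ± 0.404 in saline, 2.04 ± 0.103 in Ang II and 2.00 ± 0.192 in NaBu libraries (SD, n = 3), with overlap. A ratio of Cox6b1 to Cox6b2 could not be formed, because no gene name Cox6b1 was found.

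In complex V all 15 subunits had a higher mean with NaBu than with Ang II, and none passed the test. The 5 head subunits had a median of 0.28 above Ang II and 0.38 above saline, and the other 10 a median of 0.14 above Ang II and 0.04 above saline. In Ang II against saline 5 of the 5 head subunits and 1 of the other 10 had a higher mean, at medians of 0.07 and -0.06. None had a call, and this difference between the parts was not tested. It depended on saline replicate 2. Without that library the head subunits Atp5a1 and Atp5b were lower in Ang II than in saline, at -0.14 and -0.12. The split between the parts was not counted in that fit.

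Atp5a1, the alpha subunit of the head, was at 2589, 1525 and 2507 CPM in saline, 1912, 2443 and 2602 in Ang II and 2647, 2853 and 3088 in NaBu libraries. Atp5b, the beta subunit that holds the catalytic sites, was at 4615, 3051 and 4647 in saline, 3715, 4650 and 4483 in Ang II and 4867, 5267 and 5502 in NaBu libraries. For both, the NaBu libraries lay above all 6 others. Their log2 differences from Ang II were 0.30 (SE 0.197, adjusted p = 0.395) and 0.28 (SE 0.167, adjusted p = 0.349). The rotating central stalk subunits Atp5c1 and Atp5d lay 0.42 and 0.27 above Ang II and 0.47 and 0.55 above saline, free of overlap in both, and Atp5e, the third of that stalk, lay 0.07 above Ang II with overlap.

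The membrane ring that turns with proton flow is built of a single protein encoded by 3 genes, of which 1 stood free of overlap with NaBu. Atp5g2 was at 94.1, 82.8 and 104.5 CPM in saline, 71.2, 93.9 and 96.1 in Ang II and 127, 128 and 147 in NaBu libraries. Its NaBu values lay above all others, with a log2 difference of 0.62 (SE 0.137, adjusted p = 0.0537) from Ang II and 0.52 (SE 0.137, adjusted p = 0.0568) from saline. Atp5g1 and Atp5g3 differed from Ang II by 0.04 (SE 0.233, adjusted p = 0.938) and 0.14 (SE 0.255, adjusted p = 0.799), with overlap. The difference between the 3 genes was not tested, and reads of these close relatives could have been shared in the counting.

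Of the outer stalk, Atp5f1 lay 0.49 (SE 0.191, adjusted p = 0.171) above Ang II and 0.57 (SE 0.191, adjusted p = 0.106) above saline without overlap. Atp5h had the smallest difference of the complex, 0.00 (SE 0.22, adjusted p = 0.994) from Ang II, at 245.5, 133 and 275 CPM in saline, 213, 217 and 223 in Ang II and 230.3, 190.4 and 234 in NaBu libraries. Its groups overlapped throughout, as did those of the stalk subunits Atp5j (0.07 from Ang II) and Atp5o (0.09).

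Among the small membrane subunits, Atp5j2 stood 0.59 (SE 0.214, adjusted p = 0.15) above Ang II without overlap. Atp5l and Atp5i, which take part in holding pairs of the enzyme together, differed from Ang II by 0.26 and 0.14 with overlap. Atp5i had the widest saline spread of the members, at 46.3, 28.9 and 90.8 CPM. Usmg5, another such small subunit that the name rule does not reach, was at 184, 115 and 129.9 CPM in saline, 92, 140.4 and 155 in Ang II and 224, 253 and 294 in NaBu libraries. Its NaBu values lay above all others, by 0.99 (SE 0.22, adjusted p = 0.0537) from Ang II and 0.85 (SE 0.22, adjusted p = 0.0544) from saline, so it passed neither test. Atpif1, the inhibitor that blocks the head from running in reverse, differed from Ang II by 0.08 (SE 0.28, adjusted p = 0.904), and Ndufa4, counted today with complex IV, by 0.39 (SE 0.172, adjusted p = 0.215).

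Besides Cox7a2l, the genes that match only by name had groups that overlapped in every comparison. Cox7a2l2 was at 14.6, 8.75 and 11.8 CPM in saline, 10.9, 10.2 and 13.5 in Ang II and 9.22, 12.9 and 12.8 in NaBu libraries, a difference of 0.01 (SE 0.211, adjusted p = 0.981) from Ang II. Atp5s and Atp5sl lay 0.29 and 0.22 above Ang II.

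Of the 46 members 15 have 2 or more transcripts in the tables, and in 13 of these the leading transcript held under 95% of the counts on average. Its share did not overlap between NaBu and Ang II for 3 of the 13, namely Atp5c1, Atp5d and Atp5j, beside 13% of the 6985 genes tested that meet the same conditions. Between Ang II and saline it did not overlap for Atp5g1, Cox4i2 and Sdhc, beside 9.28% of those genes, and between NaBu and saline for Atp5c1, Cox4i2 and Sdhc, beside 12.7%. They are named after their values were seen. In Atp5c1 the leading transcript held 76.7%, 74.5% and 75.5% in saline, 75.8%, 76.5% and 76.5% in Ang II and 79.1%, 80.0% and 82.2% in NaBu libraries, so the NaBu shares lay above all others. The exact two-sided permutation test gave p = 0.1 against each group, the smallest it can give here. In Atp5d the leading share was 94.5%, 94.9% and 94.7% in Ang II and 91.5%, 91.4% and 91.0% in NaBu libraries, with saline at 95.5%, 95.3% and 86.4%.

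**Figure D5:**
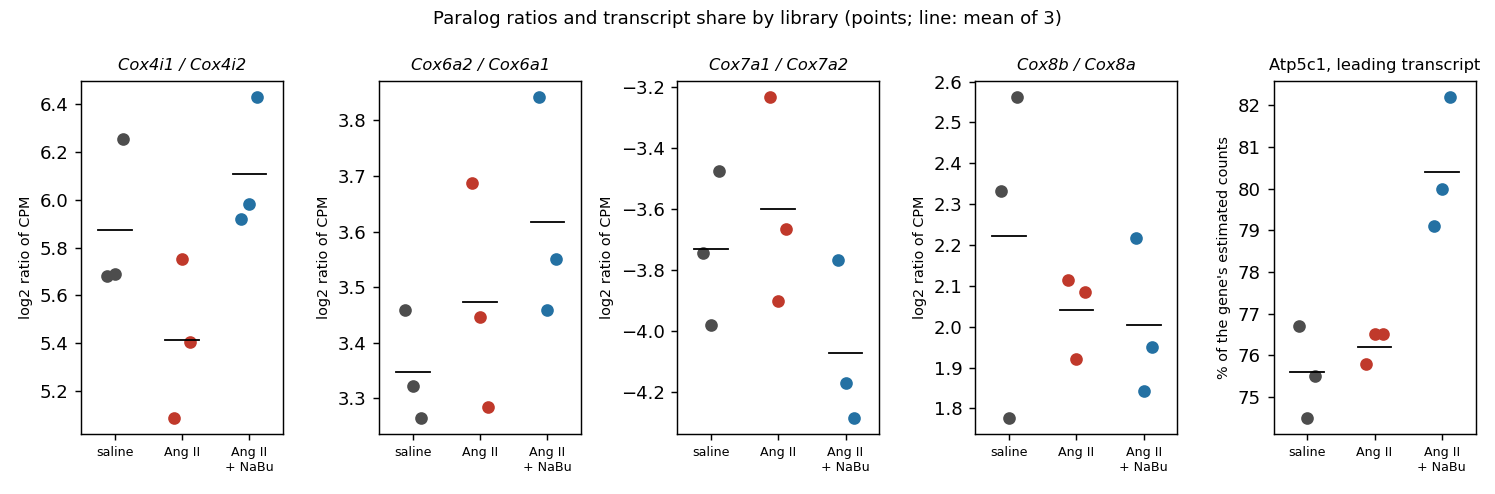
Log2 ratio of CPM for 4 pairs of complex IV isoforms, and the leading transcript's share of Atp5c1 counts in percent, in each library, with lines at the group means; the axes do not start at 0. The ratio of Cox4i1 to Cox4i2 is 5.09 to 5.75 in Ang II and 5.92 to 6.43 in NaBu libraries, the other 3 pairs overlap between groups, and the NaBu points of Atp5c1 lie above the other 6.

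Genes around the chain were described by lists. The complex I subunits, the entry point from NADH, stood above Ang II in the NaBu group for 33 of 35, with a median of 0.29, from -0.33 (Ndufc1) to 0.92 (Ndufb4), and none was called in any comparison. Of 33 assembly factors of complexes II to V, 28 stood above Ang II in the NaBu group, from -0.39 (Cox16) to 1.01 (Sdhaf3), with a median of 0.30 and none called.

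Against saline 3 of the 33 assembly factors rose and none fell, beside 3.01% of all genes that rose and 2.05% that fell. Sco1, which delivers copper to complex IV, was at 9.72, 9.18 and 9.32 CPM in saline, 11.2, 12.6 and 13.6 in Ang II and 16, 14.85 and 17 in NaBu libraries. The Ang II values already lay above all saline values, and the NaBu libraries above both, with a rise of 0.76 (SE 0.122, adjusted p = 0.0179) over saline. Sdhaf2, which attaches FAD to Sdha, rose by 0.54 (SE 0.0971, adjusted p = 0.0222), and Tmem70, needed for building complex V, by 0.73 (SE 0.166, adjusted p = 0.0378). Without saline replicate 2, where 1.86% of all genes rose, Sco1 and Sdhaf2 were still called (adjusted p = 0.0316 and 0.0334) and Tmem70 was not (0.0651). Without NaBu replicate 2 or 6 none of the 3 was called, beside 0.0317% and 0.019% of all genes. Without NaBu replicate 4 Sco1 alone was, beside 0.432%. The Tmem70 call was also lost without saline replicate 1 or Ang II replicate 2 or 3, where 1.47%, 0.874% and 0.909% of all genes rose.

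All 13 citrate cycle genes stood above Ang II in the NaBu group, by a median of 0.40, from 0.21 (Fh) to 0.50 (Ogdh). Each did so without overlap, beside 18.1% of all genes tested. None was called there. Against saline 1 of the 13 rose, beside 3.01% of all genes, namely Idh3a, a subunit of isocitrate dehydrogenase, by 0.58 (SE 0.143, adjusted p = 0.0478). Of 15 genes of ubiquinone synthesis, electron transfer and mitochondrial carriers all were higher than with Ang II, from 0.02 (Pdss1) to 0.74 (Etfdh). Against saline 2 of them rose, beside 3.01% of all genes. Etfdh, which feeds electrons from fatty acid oxidation to ubiquinone, rose by 0.88 (SE 0.202, adjusted p = 0.0382), and the outer membrane channel gene Vdac2 by 0.48 (SE 0.107, adjusted p = 0.0367). Without saline replicate 2 Etfdh was still called (adjusted p = 0.0334), while Idh3a (0.0622) and Vdac2 (0.0523) were not. None of the 3 was called without saline replicate 1, Ang II replicate 2 or 3, or any single NaBu library, and without Ang II replicate 1 Vdac2 alone was. In these fits 0.019% to 2.79% of all genes rose.

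The 11 listed regulators of mitochondrial genes did not share a direction: 7 were higher and 4 lower with NaBu than with Ang II, from -0.37 (Nrf1) to 0.42 (Esrra), with none called. Tfam, which packages and transcribes mitochondrial DNA, rose over saline by 0.59 (SE 0.126, adjusted p = 0.0335), at 24.2, 19.1 and 24.15 CPM in saline, 23.6, 28.3 and 27.1 in Ang II and 32.75, 31.7 and 37.2 in NaBu libraries. It was 1 of the 11, beside 3.01% of all genes that rose. It was not called without saline replicate 1 or 2 (adjusted p = 0.0513 and 0.0591), Ang II replicate 2 or 3, or any single NaBu library. In these fits 0.019% to 1.86% of all genes rose. The comparisons with saline and with Ang II share the NaBu libraries, so their values are given side by side and are not independent.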

How the data were processed

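Estimated counts per transcript were deposited by the authors as 1 table for each group, with transcript, gene name and the libraries in columns, per the file headers. The deposited saline table holds estimated counts like the others, with a stray line-end character that was stripped. Reads were handled with Bowtie 0.12.2 and mm8, a mouse build, per the submitters' processing notes, whereas transcripts carry rat RefSeq identifiers. The counter, and whether strand was used, is not given in the sources used here. Values of 1 to 3 were frequent, and among values of 4 to 16 each multiple of 4 was more frequent than the value before it, so 1 fragment may be worth about 4 counts, which was tried as an alternative.

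Transcripts were summed to 22608 gene names, and the whole-number values were used unchanged. Genes were filtered with filterByExpr, which kept 15467 genes and all 46 members, and tested in 1 fit of all 3 groups with edgeR 4.0.16 in R 4.3.3 (quasi-likelihood test, TMM factors from 0.887 to 1.14, prior count 0.125, common biological coefficient of variation 0.256). A gene was called at a Benjamini-Hochberg adjusted p under 0.05 over all genes. Levels are CPM on the TMM-scaled total, listed as replicates 1, 2 and 3, or, for NaBu, by the column numbers 2, 4 and 6, which differ from the numbers 1, 2 and 3 in the sample titles. CPM are not per length, so levels are not compared between genes. SE is the standard error of a log2 difference. The fit was also run on simulated counts with the same spread for all genes and no outlying library, unlike these data. Its outcome is not reported here. DESeq2 1.42.0, other scalings and filters and left-out libraries were alternatives. Full values by library are given for called members, the ends of each complex in NaBu against Ang II, landmark subunits and isoform pairs. Usmg5, Atp5i, called genes of other lists and the transcript shares were added after their values were seen. Not every gene read is reported here. The members and lists were chosen with earlier results of these data known.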

Additional observations from a re-analysis of the deposited data

How the results depend on the processing

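In NaBu against Ang II, where no member was called, DESeq2 called 8, a fit of the 2 groups alone 13, values divided by 4 gave 1 (1.15% of all genes rose), and leaving out saline replicates 2 and 3 gave 13 (6.27%). Leaving out single libraries gave 0 to 12 calls. In NaBu against saline, where 4 were called, DESeq2 called 11, and the fit of the 2 groups alone, the highest transcript of each gene, and leaving out saline replicates 2 and 3 each gave 0, with 0.0331%, 0.104% and 0.338% of all genes. Leaving out single libraries gave 0 to 9. Left-out libraries also remove degrees of freedom. Leaving out both saline replicate 2 and Ang II replicate 1, chosen after seeing the data, gave 0, 0 and 6 calls for Ang II against saline, NaBu against Ang II and NaBu against saline, where 0.00638%, 0.421% and 2.97% of all genes rose. The cause of these changes was not tested. No member was called for Ang II against saline under any alternative. The median difference stayed between 0.20 and 0.40 for NaBu against Ang II and between 0.12 and 0.48 for NaBu against saline. Of 1536 values of named members under alternatives, 1341 kept their sign and their side of the threshold, 37 newly passed and 39 no longer did. The other 119 changed sign with no call in either fit.

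Saline and Ang II share replicate numbers. Same-numbered libraries had correlations of -0.004, -0.033 and 0.008 in their deviations, so the numbers were not taken as pairs. With the replicate number as a block, 0 members were called and their median difference was 0.06. The NaBu samples are titled 1, 2 and 3 but their columns are numbered 2, 4 and 6. Which column is which titled sample is not known, so no block could be fitted there.

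With 3 libraries a group, the spread between libraries limits what can be called, and members low in CPM, such as Cox4i2, rest on the fewest counts.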

Other observations

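Because Sdhc was lower in Ang II than in saline without overlap, some genes near it in the annotation order of the RefSeq table were read as well, a look added after the Sdhc values were seen. Fcgr2a, an immunoglobulin receptor gene, was at 7.41, 9.68 and 10.05 CPM in saline, 4.94, 5.255 and 5.38 in Ang II and 5.69, 7.78 and 6.14 in NaBu libraries, and its Ang II values also lay below all saline values. Pcp4l1 had the same order of those groups, at 14.3, 20.2 and 19.45 CPM in saline, 13.2, 10.4 and 10.6 in Ang II and 11.4, 8.51 and 14.55 in NaBu libraries. Nr1i3, at 6.51, 6.12 and 4.93 CPM in saline, 6.35, 5.98 and 4.505 in Ang II and 5.225, 3.75 and 4.77 in NaBu libraries, overlapped between saline and Ang II, as did Fcgr2b and Cfap126. These values were given no test.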
